A study of Mus musculus with 33 samples.

Results

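Tumour-associated macrophages (TAM) from mouse pancreatic tumours injected with microspheres that release interleukin-12 (IL-12) were compared with TAM from tumours labelled unirradiated. The members are the 5 macrophage libraries of these groups, 3 labelled unIrr-IL12 and 2 labelled unIrr, out of 33 libraries in the study, and all 53735 genes in the table that the authors deposited for this contrast. The mice were C57BL/6 and carried orthotopic tumours of KCKO, a mouse pancreatic ductal adenocarcinoma line, grown from 100000 cells placed in the tail of the pancreas. IL-12 microspheres, 2 mg of beads holding 0.5 µg of recombinant cytokine, went into the tumour on day 10. The protocols also name empty microspheres, without stating whether the unirradiated group received them, and the day of harvest is not given. Macrophages were sorted as CD45+CD11b+Ly6CmodLy6G-F480+ cells, and their RNA was sequenced with a kit that does not mark strand. The other groups used here are TAM given stereotactic body radiotherapy (SBRT, 4 fractions of 6 Gy on days 6 to 9) alone or with IL-12, 2 libraries each, and inflammatory monocytes (IM) and CD8 T cells with and without IL-12, 3 libraries each. The labels do not say that each library came from a separate mouse. The p-values therefore rest on spread between libraries and may not cover spread between mice.

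IL-12 is a secreted cytokine of dendritic cells and macrophages. Its receptor, built from the products of Il12rb1 and Il12rb2, signals through STAT4 in natural killer and T cells and makes them release interferon gamma. Macrophages answer interferon gamma through IFNGR1, IFNGR2, JAK1 and JAK2, and switch on immunity-related GTPases, chemokines that draw T cells, antigen presentation, nitric oxide synthase and the checkpoint ligand PD-L1. Type I interferons signal through STAT2 and IRF9, and many antiviral genes answer both kinds of interferon.

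In TAM of IL-12-treated tumours the genes that rose included 36 of 70 genes listed as interferon targets, and Ly6a, Slfn1, Zbp1 and Klrk1 were among the highest statistics. The lowest statistics of the genes that fell included Emp1, fibronectin (Fn1), Fcrls, Ccl9 and Gas6. A gene was called where the adjusted p of the authors' deposited DESeq2 test was below 0.05, with the direction read from the deposited Wald statistic. Of 19042 genes with an adjusted p, 178 were called, which is 0.935%. Of these 124 were higher with IL-12 (0.651%) and 54 were lower (0.284%). The median log2 fold change was 0.75 in the genes that rose and -0.93 in those that fell, and 24 called genes had a log2 fold change of at least 1 in size, 9 higher and 15 lower. The genes that rose were also the more abundant ones, with a median mean normalised level of 3659 over the TAM libraries against 638 in those that fell. Over all 19042 genes the median statistic was -0.02. The plot of statistic against level shows the called genes at both edges of this cloud.

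**Figure D1:**
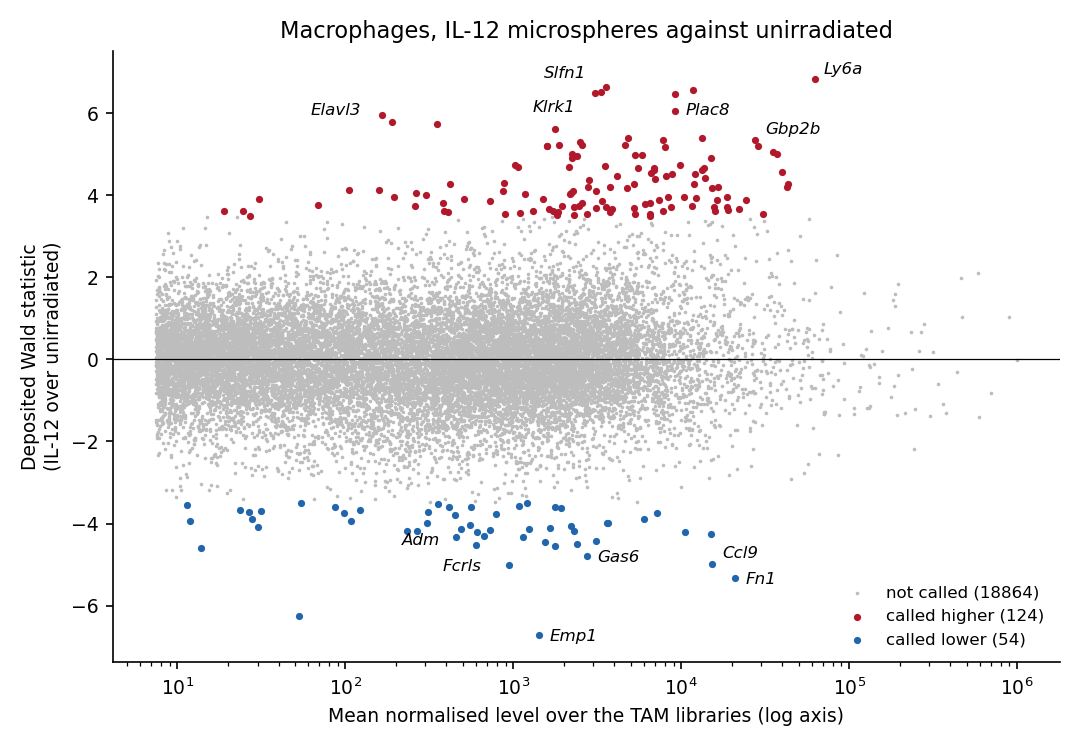
Each point is 1 of the 19042 tested genes, with its mean normalised level over the TAM libraries on a log axis and its deposited Wald statistic for IL-12 over unirradiated macrophages on the vertical axis. The 124 genes called higher include some of the most abundant (Ly6a at 62544, Gbp2b at 27527), while most of the 54 called lower lie at lower levels, with Fn1 and Ccl9 among the exceptions.

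The table gives 1 mean level per gene over all TAM libraries and no value per library, so the spread within a group and its overlap with the other could not be shown. Values after the ± of a deposited log2 fold change are that fold divided by its Wald statistic, on the shrunken scale of the deposited folds. This ratio is a standard error only where both columns come from the same estimate. The opposite signs given next show that this did not hold for every gene. For a difference between populations, ± gives the standard error used in its test. Fold and statistic had opposite signs for 2795 of 32384 genes (8.63%), of which 2430 had a mean level below 10; the median size of their statistic was 0.0142. Among the 178 called genes this held for 1, the olfactory receptor pseudogene Olfr650-ps1. In the sorted cells the defining macrophage genes were abundant when levels were divided by exon length, and most markers of other cells were lower. Per kilobase of exon, C1qa (a complement component made by macrophages) had a mean level of 109554, Cd68 26831, Csf1r (the receptor for the macrophage growth factor CSF1) 10825 and Adgre1, which encodes F4/80, 10753. On the same scale the 14 macrophage markers ran from 1505 (Mertk) to 451173 (Lyz2). The highest marker of other lists was Csf3r at 2154 for neutrophils (Ly6g stood at 9.23), Ighm at 1461 for B cells, Nkg7 at 771 for natural killer cells (Ncr1 at 3.44), Krt18 at 644 for epithelium (Epcam at 2.10), Pecam1 at 243 for endothelium (Cdh5 at 4.40) and Cd8b1 at 152 for T cells (Cd3e at 46.0). Bst2, an interferon-stimulated gene that also stands in the dendritic cell list, reached 11494. Plac8 of the monocyte list reached 5750, and both lay within the range of the macrophage markers. So did Csf3r and, of the monocyte list, Ms4a4c at 3168, F13a1 at 2241, Ccr2 at 1965 and Fn1 at 1797. The highest acinar and erythroid markers were Ctrb1 at 558 and Hba-a2 at 1148. In bulk RNA of sorted cells, fewer cells of a type and less RNA per cell cannot be told apart.

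The guanylate-binding proteins and immunity-related GTPases, large GTPases that macrophages use against intracellular microbes and that interferon gamma induces, rose together. Of the 19 listed genes, 14 rose, none fell, and all 19 had a statistic above 0, with a median log2 fold change of 0.73 against -0.01 over all tested genes. Gbp2b (chr3:142594847-142619179, plus strand) led with 1.07 ± 0.20 (adjusted p = 0.00011) at a mean level of 27527. Gbp4 followed at 0.89 ± 0.18 and an adjusted p of 0.00032. The guanylate-binding family as a whole had 9 of 11 tested members called, from Gbp2 at 0.59 to Gbp2b, with Gbp3 at 0.59 (adjusted p = 0.071) and Gbp9 at 0.56 (adjusted p = 0.076) short of the threshold. In the immunity-related GTPase family 5 of 7 rose: Tgtp1 by 0.85 ± 0.16, Tgtp2 by 0.81 ± 0.16, Igtp by 0.79 ± 0.16, Ifi47 by 0.70 ± 0.15 and Irgm1 by 0.66 ± 0.17. Iigp1 stood at 0.51 ± 0.16 (adjusted p = 0.13) and Irgm2 at 0.59 (adjusted p = 0.078). Tgtp1 and Tgtp2 are near-identical copies, and Gbp4 shares annotated exons with Gbp8 and Gbp9, so how their reads divide is uncertain.

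The promoters of some of these genes are shown because several, though not all, held letters of known interferon-response motifs. The windows are 300 bases, 250 before and 50 after the start of the gene, from RefSeq on GRCm38.p6, for the 6 called genes of the GTPase and antiviral lists with the largest statistics among those found in the RefSeq promoter table. Each is printed 5′ to 3′ on the gene's strand, with matches on either strand to 2 motifs in capitals. The first is a pair of GAAA separated by 2 bases of any kind, the core of the interferon-stimulated response element (ISRE), which factors of the IRF family bind. The second is TTCNNNGAA, with N for any base, the gamma-activated site of interferon-gamma target genes. They lie at chr3:142594597-142594896 for Gbp2b, chr19:34583279-34583578 for Ifit3, chr11:48992197-48992496 for Tgtp1, chr11:49064163-49064462 for Tgtp2, chr11:58199306-58199605 for Igtp and chr3:151749861-151750160 for Ifi44. Gbp2b, Ifit3 and Igtp are on the plus strand and the other genes on the minus strand.
Gbp2b: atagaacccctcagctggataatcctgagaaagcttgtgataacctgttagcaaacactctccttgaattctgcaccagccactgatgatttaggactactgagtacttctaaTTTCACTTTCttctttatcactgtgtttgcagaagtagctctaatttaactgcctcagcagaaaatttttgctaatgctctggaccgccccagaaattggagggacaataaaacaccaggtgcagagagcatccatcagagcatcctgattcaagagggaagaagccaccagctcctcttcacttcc
Ifit3: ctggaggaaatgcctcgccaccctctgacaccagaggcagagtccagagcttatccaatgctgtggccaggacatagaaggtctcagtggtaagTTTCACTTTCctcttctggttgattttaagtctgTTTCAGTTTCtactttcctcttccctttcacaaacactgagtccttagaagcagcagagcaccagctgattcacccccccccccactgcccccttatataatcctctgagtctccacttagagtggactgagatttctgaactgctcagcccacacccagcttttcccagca
Tgtp1: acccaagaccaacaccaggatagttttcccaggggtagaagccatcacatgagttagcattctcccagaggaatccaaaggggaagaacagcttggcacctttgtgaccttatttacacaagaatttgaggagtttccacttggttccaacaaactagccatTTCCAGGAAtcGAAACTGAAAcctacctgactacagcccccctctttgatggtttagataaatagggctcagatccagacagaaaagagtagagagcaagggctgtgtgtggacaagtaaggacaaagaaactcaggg
Tgtp2: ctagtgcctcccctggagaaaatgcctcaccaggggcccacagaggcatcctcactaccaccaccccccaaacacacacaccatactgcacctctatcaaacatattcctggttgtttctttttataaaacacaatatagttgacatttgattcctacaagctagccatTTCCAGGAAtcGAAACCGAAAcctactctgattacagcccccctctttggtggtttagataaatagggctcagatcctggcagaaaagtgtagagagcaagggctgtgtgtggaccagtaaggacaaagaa
Igtp: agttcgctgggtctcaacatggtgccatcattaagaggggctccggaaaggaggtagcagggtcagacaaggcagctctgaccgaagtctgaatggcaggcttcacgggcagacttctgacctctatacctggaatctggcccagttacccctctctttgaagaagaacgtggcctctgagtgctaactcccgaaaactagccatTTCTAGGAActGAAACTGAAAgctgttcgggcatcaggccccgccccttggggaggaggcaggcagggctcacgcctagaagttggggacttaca
Ifi44: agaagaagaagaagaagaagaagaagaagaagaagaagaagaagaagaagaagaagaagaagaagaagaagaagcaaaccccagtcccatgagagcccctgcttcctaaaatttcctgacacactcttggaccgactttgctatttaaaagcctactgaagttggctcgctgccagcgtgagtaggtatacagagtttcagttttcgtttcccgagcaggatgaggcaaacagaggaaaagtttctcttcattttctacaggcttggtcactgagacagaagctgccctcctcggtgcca

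In the windows of Tgtp1, Tgtp2 and Igtp the letters TTCNNNGAA were followed 2 bases later by the ISRE letters. This pair began 88 bases before the start of Tgtp1, 81 before that of Tgtp2 and 45 before that of Igtp. Ifit3 held the ISRE letters at 2 places, beginning 156 and 122 bases before its start, and Gbp2b at 1, beginning 137 before. Neither motif stood in the window of Ifi44. A match to the ISRE letters was present for 8 of 9 called GTPases with a promoter entry. It was present for 4 of 10 called genes of the antiviral list and for 23 of 68 genes called higher (33.8%). It was present for 0 of 37 called lower, 3.94% of the 9939 tested genes with an entry and 3.99% of all 27025 genes in the promoter table. For TTCNNNGAA the numbers, in the same order, were 5 of 9, 1 of 10, 11 of 68 (16.2%), 2 of 37 (5.41%), 8.34% and 9.55%. Both patterns can overlap on the same bases, and matches are descriptions of letters, not of binding.

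Antiviral genes best known as targets of type I interferon rose as well. Of 26 listed genes 16 rose, none fell and all 26 had a statistic above 0, with a median log2 fold change of 0.67. Zbp1 (chr2:173206612-173218923), a sensor of Z-form nucleic acid that can start cell death, rose by 0.87 ± 0.13 (adjusted p = 2.6e-07). The tetratricopeptide proteins Ifit3, Ifit3b and Ifit2, which bind viral RNA, rose by 0.98 ± 0.18, 0.89 ± 0.19 and 0.91 ± 0.21, whereas Ifit1 stood at 0.65 and was not called. The dynamin-like GTPase gene Mx1 rose by 0.87 ± 0.17, and Irf7, the transcription factor that amplifies type I interferon, by 0.89 ± 0.21. Of the signalling components, Stat2 rose by 0.60 ± 0.13 and Irf9 stood at 0.14 with an adjusted p near 1 (0.999). All 4 measured Phf11 genes rose, between 0.62 and 0.89, and 6 of 11 genes of the Ifi200 family of DNA sensors rose, Ifi204 by 0.69 ± 0.15 among them. Samhd1, which depletes nucleotides that viruses need, rose by 0.68 ± 0.15 at a level of 39723. The lists were chosen with earlier results of these data known, so their counts are descriptions; together the 3 interferon lists hold 70 genes, of which 36 were among the 124 that rose and 0 among the 54 that fell.

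**Figure D2:**
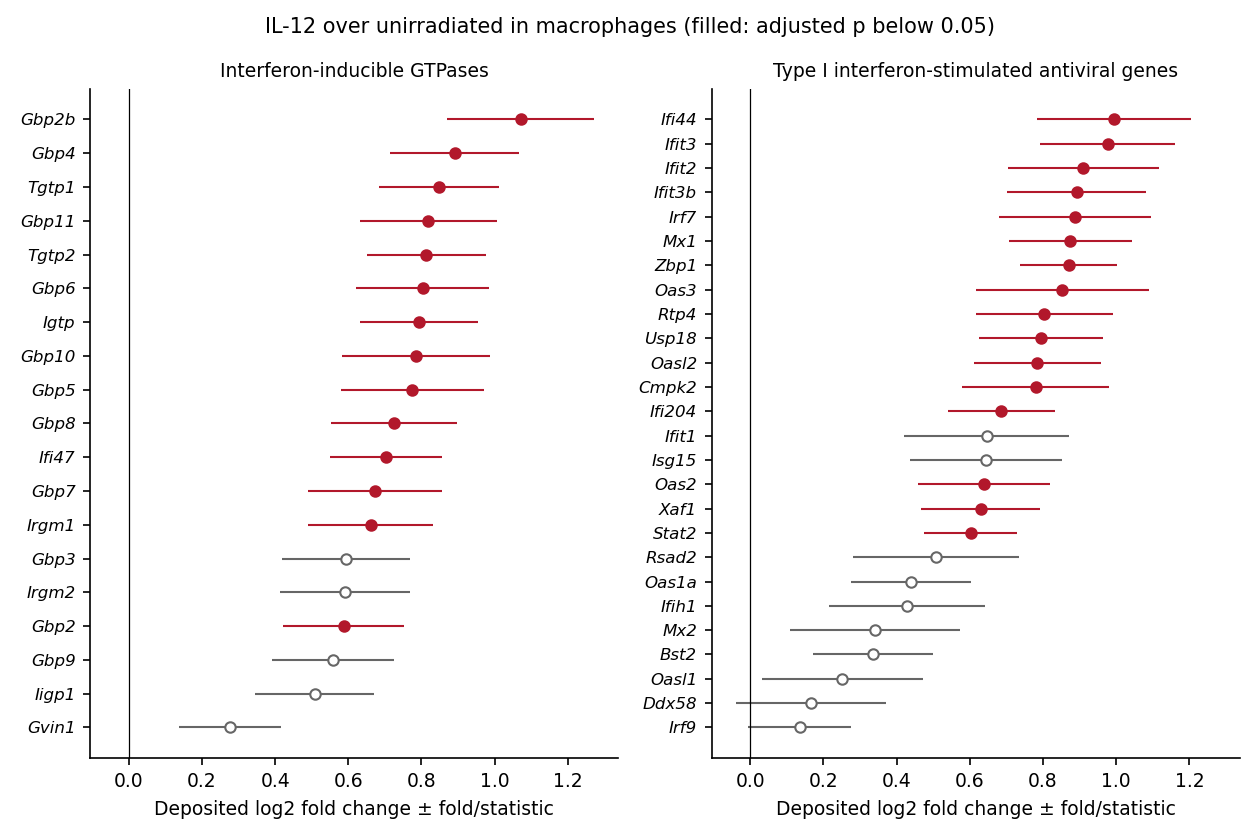
Deposited log2 fold change of each member of the GTPase list (left) and the type I interferon list (right) for IL-12 over unirradiated macrophages, with bars of ± the fold over its Wald statistic. Filled points have an adjusted p below 0.05: 14 of 19 GTPases and 16 of 26 antiviral genes, with every member of both lists to the right of 0.

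Other targets of interferon gamma moved less evenly. Of 25 genes in the list on interferon gamma signalling, 6 rose, Ly6a, Batf2, Socs1, Psmb9 and Wars among them, none fell and 23 had a statistic above 0. Ly6a (chr15:74994877-74998031), the gene of the surface antigen Sca-1, had the largest statistic of the whole table, with 0.97 ± 0.14 (adjusted p = 1.4e-07) at a level of 62544. Batf2, a transcription factor of activated macrophages, rose by 0.85 ± 0.18. Socs1, which restrains JAK signalling, rose by 0.63 ± 0.17 (adjusted p = 0.028). The receptor and kinase genes Ifngr1, at -0.14, and Jak2, at 0.30, did not pass the test.

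Several genes that define interferon-gamma-activated macrophages had values above 0 without passing the test. Nos2, the inducible nitric oxide synthase, stood at 0.69 ± 0.21 (adjusted p = 0.076) and Cd274, which encodes PD-L1, at 0.53 ± 0.17 (adjusted p = 0.105). Both passed when the statistics were divided by their own robust spread of 0.93, with adjusted p-values of 0.031 and 0.045. A divisor below 1 enlarges every statistic, so this setting could only loosen the test. The chemokines that recruit CXCR3-bearing T cells stood at 0.37 ± 0.19 for Cxcl9, 0.51 ± 0.21 for Cxcl10 and 0.58 for Cxcl11, with adjusted p-values of 0.72, 0.45 and 0.39. Irf1, an early interferon-gamma target, stood at 0.47 ± 0.19 (adjusted p = 0.38). None of 22 inflammatory genes was called by the DESeq2 test, with 2 at an unadjusted p below 0.05, and Tnf, Il1b and Il6 stood at 0.16, 0.12 and 0.04. Arg1, the arginase of alternatively activated macrophages, stood at -0.42 ± 0.17 (adjusted p = 0.38).

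Antigen presentation by MHC class I, the route that shows intracellular peptides to CD8 T cells, had all 22 genes above 0 and 3 called. These were Tap2 (peptide transporter) at 0.59 ± 0.13, Psmb9 (immunoproteasome subunit) at 0.45 ± 0.13 and the nonclassical H2-T23 at 0.64 ± 0.15. The median over the list was 0.32, and 12 of 22 had an unadjusted p below 0.05. The classical heavy chains H2-K1 and H2-D1 stood at 0.18 and 0.10, both uncalled. Exons of Psmb9 overlap Tap1 on the opposite strand, and Psmb9 lost its call when every gene with a p was adjusted together (adjusted p = 0.064). For MHC class II, which presents to CD4 T cells, no gene of 13 was called and 2 had an unadjusted p below 0.05; H2-Ab1 stood at 0.14 ± 0.14 at a level of 467595, and the class II regulator Ciita at 0.35 (adjusted p = 0.73).

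Genes of the IL-12 and IL-18 pathway rose in 3 of 17 cases and none fell. Il12rb1 (chr8:70808449-70821424), the receptor chain that IL-12 shares with IL-23, rose by 0.78 ± 0.15 (adjusted p = 0.00016) at a level of 4621. Its partner Il12rb2 was near the low end, with a level of 62.0 and a log2 fold change of 0.55 ± 0.27 (adjusted p = 0.70). Il18bp, the secreted inhibitor of IL-18, rose by 0.88 ± 0.16 (adjusted p = 9.1e-05), and Il27, a subunit of the IL-12-related cytokine IL-27, by 0.87 ± 0.16 (adjusted p = 2.8e-05). The transcript of Ifng itself, at a level of 135, stood at -0.21 ± 0.34. Annotated exons of Il18bp overlap Numa1, those of Il27 overlap Apobr and those of Batf2 overlap Arl2 on the opposite strand, and reads of such pairs cannot be told apart without strand.

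Plac8, Klrk1, Slfn1 and Itgb7 were among the 15 highest statistics, and monocyte markers moved both ways. Plac8, a gene high in monocytes, rose by 1.40 ± 0.22 (adjusted p = 2.8e-07). Klrk1 (chr6:129610323-129623864), which encodes the activating receptor NKG2D, rose by 1.21 ± 0.19 (adjusted p = 2.8e-07). Itgb7, an integrin chain of gut-homing leukocytes, rose by 0.70 ± 0.13, and Slfn1, a schlafen gene tied to growth arrest in lymphocytes, by 0.98 ± 0.15. Among 12 monocyte markers 4 rose, Plac8, Ly6c1 and Ms4a4c among them, and 2 fell (Fn1 and F13a1). Ly6c1 rose by 0.98 ± 0.19; Ly6c2, its neighbour and the usual monocyte marker, stood at 0.76 ± 0.24 (adjusted p = 0.14), and Ccr2, the receptor that brings monocytes out of the marrow, at 0.24 ± 0.23. Ly6c1 and Ly6c2 are close paralogs, so how their reads divide is uncertain. None of 14 macrophage markers was called, 1 had an unadjusted p below 0.05, and their median log2 fold change was -0.10.

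Markers of other cells were set beside the leukocyte genes. Of 11 tested natural killer and cytotoxic markers Klrk1 alone was called, the other 10 had statistics below 0, and Ncr1, Klrb1c and Klra8 had no adjusted p in the deposited table. Of 16 T cell markers none was called, 6 had an unadjusted p below 0.05 and 15 had a statistic below 0, with Lck, a T cell kinase, at -0.70 ± 0.20 (adjusted p = 0.054) and Cd8a at -0.56. The summed mean level of the T cell list was 2244 against 2178360 for the macrophage list. Group ranges of these sums cannot be given without values per library. Clec9a, a receptor of cross-presenting dendritic cells, rose by 0.90 ± 0.25 (adjusted p = 0.038), the only call among 14 dendritic cell markers, and lost its call when all genes with a p were adjusted together (adjusted p = 0.064). Its exons overlap Clec1b on the same strand. Fcer1a and Ms4a2 of mast cells and basophils and Tek of endothelium were listed at 0. None of the neutrophil, B cell, epithelial, acinar, fibroblast, endothelial or erythroid markers was called, with at most 1 in each of these lists at an unadjusted p below 0.05.

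The genes that fell include parts of the extracellular matrix and its enzymes. Fn1 (chr1:71585520-71653200), fibronectin, fell by 1.05 on the log2 scale (± 0.20, adjusted p = 0.00011) at a mean level of 20993. F13a1, the transglutaminase that crosslinks fibrin, stood at -0.62 ± 0.15 (adjusted p = 0.0056) and Timp2, a metalloproteinase inhibitor, at -0.63 ± 0.17 (adjusted p = 0.027); both passed the test. These were the 3 calls among 22 matrix genes, none of which rose. Beyond that list, Mmp2 (a gelatinase) at -0.87, Col14a1 (a fibril-associated collagen) at -1.06, Htra3 (a serine protease) at -1.15, Sulf2 (a heparan sulfate endosulfatase) at -0.94 and Igfbp4 (a binder of insulin-like growth factors) at -0.87 also fell. Markers of fibroblasts stood at or near the same sign, with 1 of 11 above 0, none called, and Col1a1 at -0.50 ± 0.22 (adjusted p = 0.54); their part in these changes was not tested.

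Emp1 (chr6:135362545-135383173), a small tetraspan membrane protein gene, had the lowest statistic of the table, with -1.27 ± 0.19 (adjusted p = 1.9e-07). Fcrls, an Fc receptor-like gene of resident macrophages, stood at -1.33 ± 0.26 (adjusted p = 0.00036) and was the only call among 7 Fc receptor genes. Gas6, the ligand that links dying cells to the receptor MERTK, fell by 1.14 on the log2 scale (± 0.24, adjusted p = 0.00088). Of 22 chemokines 3 fell and none rose: Ccl9 (-0.90 ± 0.18), Pf4 (-0.998 ± 0.24) and the B cell attractant Cxcl13 (-1.14 ± 0.30). The leukotriene enzymes Alox5 and Ltc4s both fell, by 0.96 and 1.11. Adm, which encodes the vasoactive peptide adrenomedullin, stood at -1.01 ± 0.23 (adjusted p = 0.0046) and was the only call among 24 glycolysis and hypoxia genes. Cd9, a tetraspanin, and St6gal1, a sialyltransferase, fell by 0.85 and 1.18. Exons of Cd9, Gas6, Sulf2, St6gal1, Fn1 and F13a1 overlap another annotated gene on the opposite strand.

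Lists tied to macrophage polarisation and metabolism held few or no calls. None of 24 alternatively activated genes was called, 7 had an unadjusted p below 0.05 and 4 had a statistic above 0. Among them the lectin genes Mrc1 and Mgl2 stood at -0.51 ± 0.18 (adjusted p = 0.22) and -0.75 ± 0.24 (adjusted p = 0.13), and the scavenger receptor genes Stab1 and Cd163 at -0.44 and -0.24. No gene was called among 24 lipid, 21 lysosomal, 18 complement or 28 nuclear-encoded respiratory chain genes, with 8, 5, 2 and 0 at an unadjusted p below 0.05. The same held for 12 chemokine receptors, 17 checkpoint and costimulatory ligands, 12 arginine metabolism genes and 25 myeloid transcription factors, with 3, 2, 3 and 4 at that level. Among the transcription factors Irf8, which directs monocyte and dendritic cell fate, stood at 0.41 ± 0.14 (adjusted p = 0.15).

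Cell cycle genes leaned below 0 without a call. Of 28 genes of DNA replication 26 had a statistic below 0 and 9 an unadjusted p below 0.05, with a median log2 fold change of -0.33. Of 28 mitotic genes 27 had a statistic below 0 and 7 an unadjusted p below 0.05, with a median of -0.35 and Ccna2 (cyclin A2) at -0.82 ± 0.24 (adjusted p = 0.065). Cdc25b, a phosphatase that opens mitosis and stands in neither list, fell by 1.01. All 13 mitochondrially encoded genes and all 24 cytosolic ribosomal protein genes also had statistics below 0, with median log2 fold changes of -0.32 and -0.21 and no call; 0 and 4 had an unadjusted p below 0.05. The p53 targets Cdkn1a and Phlda3, which answer radiation, stood at 0.05 and -0.24 with adjusted p-values of 0.999. The plot of statistics by list shows the interferon lists set to the right of the rest.

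**Figure D3:**
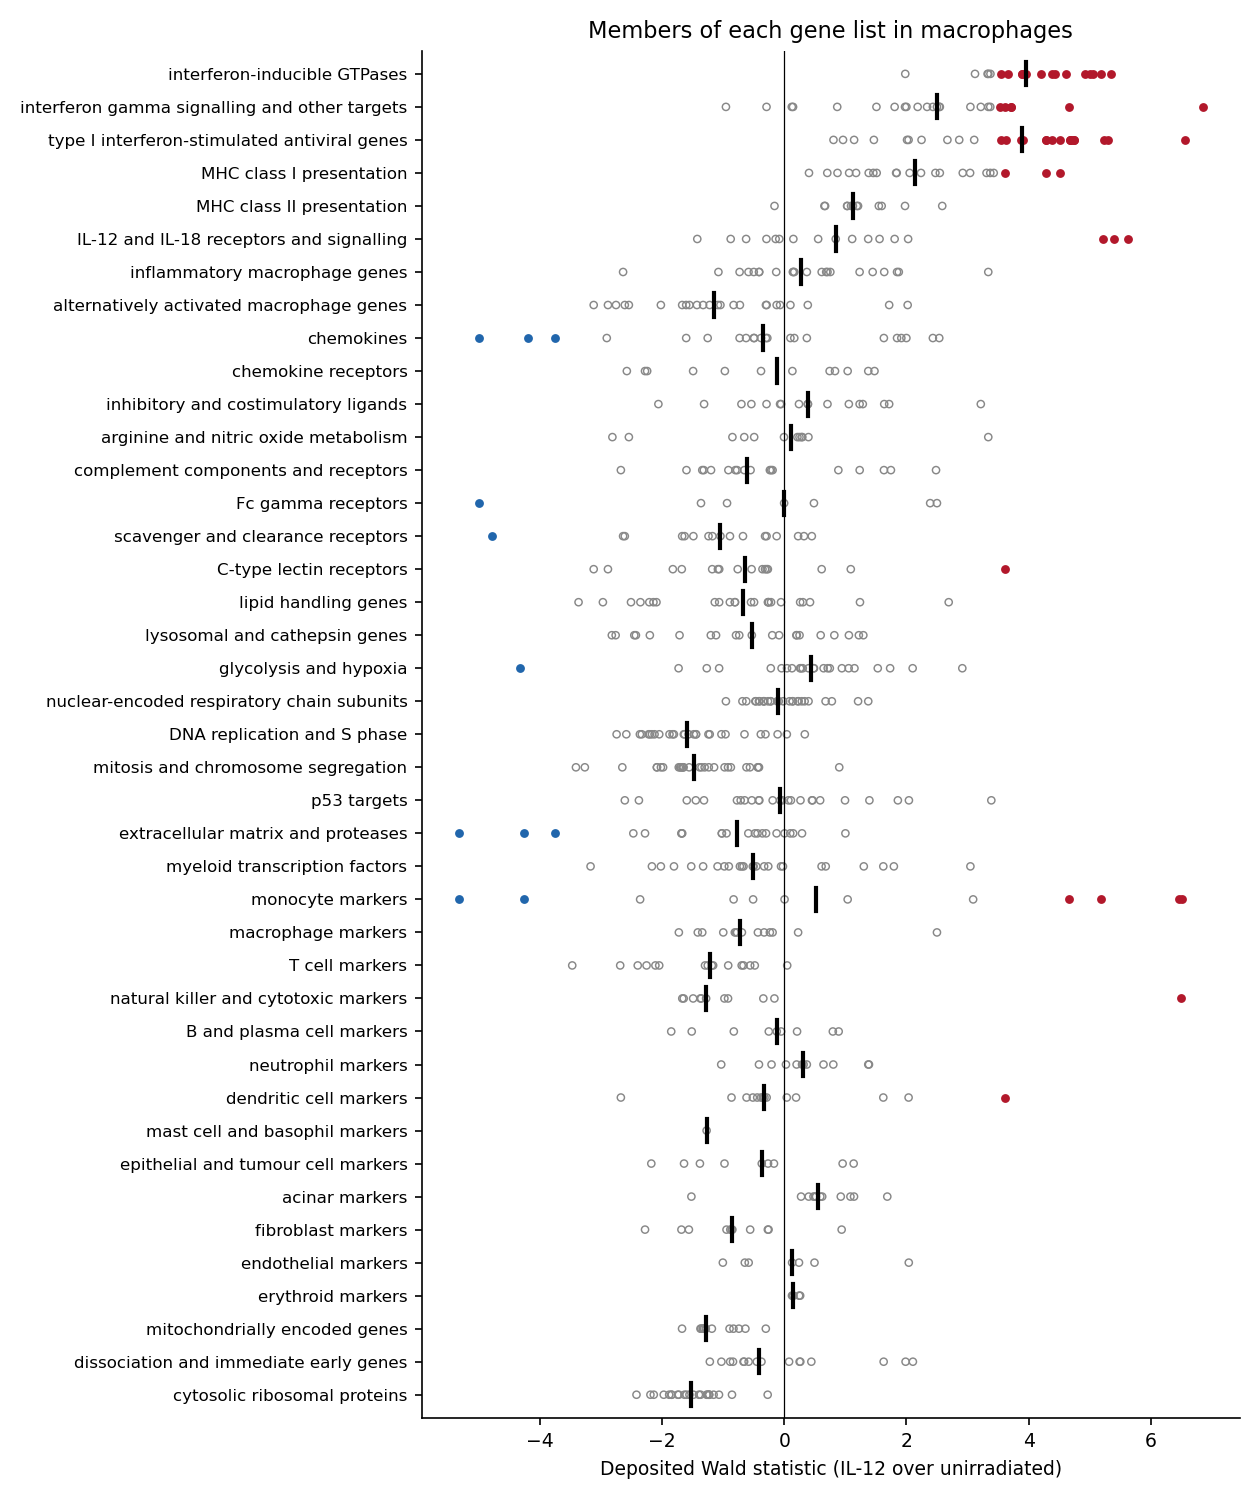
Each circle is 1 gene of a list, placed at its deposited Wald statistic for IL-12 over unirradiated macrophages; red and blue are genes called higher and lower, grey ones are uncalled, and the black bar is the list's median. The medians of the GTPase and type I interferon lists are 3.96 and 3.88, those of the 2 cell cycle lists are -1.60 and -1.47, and the median over all tested genes is -0.02.

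The 2 unirradiated TAM libraries are also the controls for SBRT and for SBRT plus IL-12, so values of the 3 contrasts share them and are given side by side without a test. By the same rule 384 of 18436 genes were called with SBRT alone (2.08%, with 0.933% higher and 1.15% lower) and 725 of 17224 with the combination (4.21%, with 2.24% higher and 1.97% lower). Ly6a had log2 fold changes of 0.97 with IL-12, 0.32 with SBRT and 0.89 with both; for Klrk1 they were 1.21, 0.18 and 0.93, and for Itgb7 0.70, 0.04 and 0.57. Emp1 and Fcrls were below 0 in all 3, Emp1 at -1.27, -0.99 and -1.33, and Fcrls at -1.33, -1.65 and -1.86. Gas6, in contrast, stood at -1.14, 0.32 and -0.17, and Mmp2 at -0.87, 0.80 and 0.77. Nos2, uncalled with IL-12 at 0.69, stood at 0.64 with SBRT and was called at 1.30 with both. Phlda3 stood at -0.24, 3.49 and 3.31. The GTPase list held 14, 2 and 15 calls of 19 in the 3 contrasts, all higher, and the list of mitotic genes 0, 16 and 10 of 28, all lower.

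**Figure D4:**
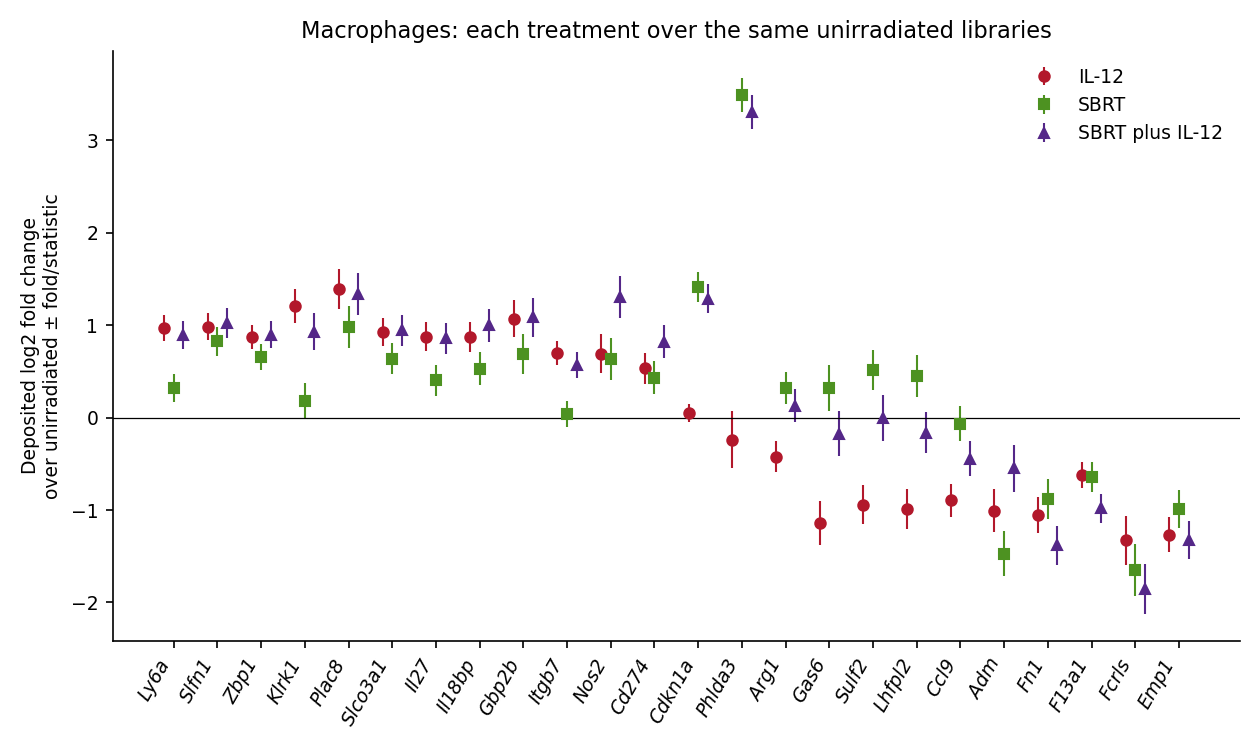
Deposited log2 fold change ± the fold over its Wald statistic for IL-12 (circles), SBRT (squares) and both (triangles), each over the same 2 unirradiated macrophage libraries. Ly6a, Klrk1 and Itgb7 have their circle and triangle well above the square, Gas6, Sulf2 and Lhfpl2 have only the circle far below 0, and Phlda3 is high only where radiation was given.

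Inflammatory monocytes and CD8 T cells of IL-12-treated tumours come from other libraries. The IL-12 effect was tested for a difference between populations with these taken as independent. The labels do not say whether the populations were sorted from the same tumours, and pairing could not be taken into account. Most genes that rose in TAM also rose in monocytes, and few did in CD8 T cells. In monocytes 546 of 16829 genes were called (3.24%), 1.91% higher and 1.33% lower. Of the 124 genes that rose in TAM, 76 also rose in monocytes, which is 61.3% of the TAM calls and 23.6% of the monocyte calls; of the 54 that fell, 9 also fell (16.7% and 4.02%). In CD8 T cells 349 of 13876 genes were called (2.52%, with 1.48% higher and 1.04% lower), and 4 of the 124 and 2 of the 54 were called the same way. Not all of these genes had an adjusted p elsewhere: 120 of the 124 and 45 of the 54 did in monocytes, and 105 and 32 in CD8 T cells. Of the 124, 2 were called lower in monocytes and 2 in CD8 T cells, and of the 54, 0 and 1 were called higher. The median log2 fold change of the 124 genes was 0.75 in TAM, 0.51 in monocytes and 0.14 in CD8 T cells. The 124 genes were chosen by their calls in TAM, so these medians are descriptions and were not tested.

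The effect differed between TAM and monocytes for 19 of 30059 genes (0.0632%), 15 with the higher effect in TAM (0.0499%) and 4 with the lower (0.0133%). An unadjusted p below 0.05 was found for 1101 genes. Of the 19, only 12 had a mean level of at least 50 in both populations. Olfr650-ps1 was counted with a difference of only 0.057. Here the effect of a gene is its statistic times a standard error, and the difference was tested with a normal test adjusted over all genes. That standard error is on the shrunken scale. In TAM with SBRT its median was 0.26 at mean levels of 30 to 100 and 0.07 at 1 to 3. Where a gene was low in only 1 population its effect there was shrunken more, so the test cannot separate response from level. Some abundant genes had small standard errors as well. In TAM it was 0.07 for the clone-named transcript RP23-108F2.19 (level 2165) and 0.0055 for Olfr650-ps1 (level 2380). The median with SBRT at levels of 1000 to 10000 was 0.18. Cd163, the haemoglobin scavenger receptor, fell in monocytes (-1.75) and stood at -0.22 in TAM, a difference of 1.53 ± 0.31 (adjusted p = 0.0036). Pi16, a peptidase inhibitor gene, and Tarm1, an activating myeloid receptor gene, also fell in monocytes and were not called in TAM, with differences of 1.29 ± 0.28 and 0.87 ± 0.20 (adjusted p = 0.014 and 0.018). Iigp1 had the lower effect in TAM, 0.49 against 1.46, a difference of -0.96 ± 0.20 (adjusted p = 0.0036). Cd9 stood at -0.83 in TAM and 0.50 in monocytes, a difference of -1.33 ± 0.30 (adjusted p = 0.014).

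Other contrasts between both myeloid populations did not pass that test. MHC class II had 6 of 13 genes called higher in monocytes and none in TAM, and none of the 13 passed the test of the difference; for H2-Ab1 the difference was -0.61 ± 0.20 (adjusted p = 0.60). For Nos2, which rose in monocytes (1.51), it was -0.82 ± 0.28 (adjusted p = 0.68), and for Il12rb1 -0.57 ± 0.21 (adjusted p = 0.84). Plac8 differed by 0.91 with an adjusted p of 0.17, and Slfn1 by 0.50 with an adjusted p of 0.91. Among the interferon lists, Iigp1 was the only gene with a called difference. For the 28 mitotic genes the median difference was -0.62, with no call.

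Against CD8 T cells the effect differed for 64 of 29543 genes (0.217%), 26 higher in TAM (0.088%) and 38 lower (0.129%). An unadjusted p below 0.05 was found for 1692 genes, and 49 of the 64 had a mean level of at least 50 in both populations. Slfn1, Slco3a1 (an organic anion transporter gene), Klrk1, Tgtp1 and Tgtp2 had the higher effect in TAM, by 1.25, 1.14, 0.93, 1.08 and 1.01. Sulf2 had the largest statistic of the difference, falling in TAM (-0.96) and rising in CD8 T cells (1.16), a difference of -2.12 ± 0.31 (adjusted p = 3.2e-07). Emp1 differed by -1.48 and Furin, a proprotein convertase gene that rose in CD8 T cells (1.30), by -1.44. Cell cycle genes differed too: 3 of 28 replication genes and 4 of 28 mitotic genes, Ccna2, Ube2c and Cdk1 among them, had the lower effect in TAM, and 22 of the 28 mitotic genes rose in CD8 T cells. The plot of 3 populations sets these genes side by side.

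**Figure D5:**
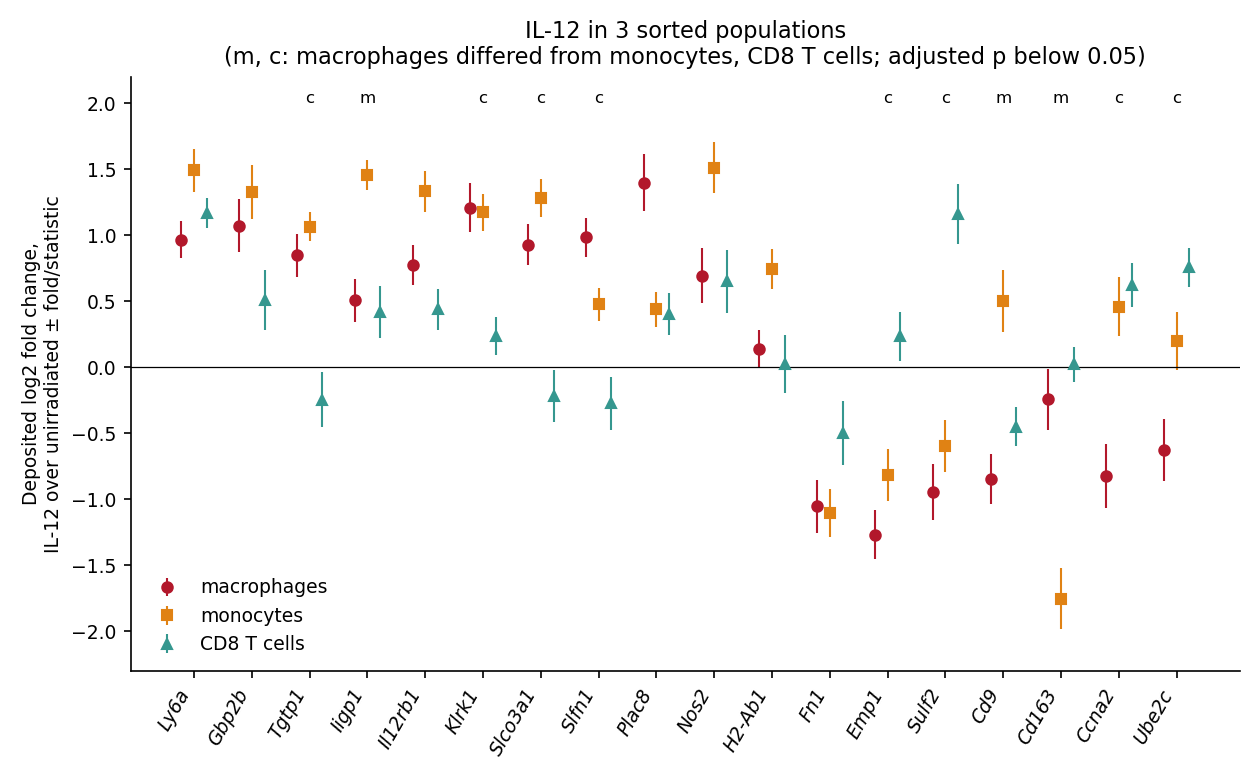
Deposited log2 fold change ± the fold over its Wald statistic for IL-12 over unirradiated in macrophages (circles), monocytes (squares) and CD8 T cells (triangles), with m and c above genes whose macrophage effect differed from that in monocytes or CD8 T cells. Ly6a is above 0 in all 3 populations, and Sulf2 is below 0 in macrophages and above 0 in CD8 T cells. Plac8 and Slfn1 have their highest points in macrophages, but neither passed the test of the difference from monocytes (adjusted p = 0.17 and 0.91).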

How the data were processed

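RNA of sorted macrophages was compared in 3 IL-12 and 2 unirradiated libraries. Per the file headers, the authors deposited DESeq2 results: a mean normalised signal per gene over all libraries of the population, a log2 fold change, a Wald score, a p-value and an adjusted p-value. The deposited folds were shrunken, and the deposited p-value equalled the 2-sided normal probability of the score. The build was GRCm38 and the tools named were STAR 2.6.0c, Trimmomatic 0.36, Salmon, featureCounts, FastQC 0.11.8 and Subread, per the submitters' processing notes; the annotation and design formula are not given in the sources used here. Without counts or values per library, the depth is unknown.

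Differences between populations were computed with Python 3.11.15 and scipy 1.17.1 from statistic times standard error, with Benjamini-Hochberg adjustment over all genes. For TAM the standard error was the mean fold over statistic of its 2 radiotherapy contrasts, times 0.913 for the third library. The script was tested on simulated data. Their noise was drawn from the same kind of standard errors, for genes with a TAM level of at least 50. That run therefore checked the arithmetic and not the standard errors. Gene positions are from GENCODE M21, where 28535 names and 157 of the 178 called genes matched. Named genes were the 15 highest and 15 lowest statistics among called genes whose level reached 50, without predicted genes, up to 4 called members of each list and a set of macrophage genes; other called genes were named after their values were seen, and some genes that the rule selects are not reported here. The members and lists were chosen with earlier results of these data known. Alternatives covered the threshold, the adjustment, the level filter, the spread of the statistic, the source of direction, predicted genes and the standard error.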

Additional observations from a re-analysis of the deposited data

Results flagged for a closer look

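For 19 gene and population pairs the IL-12 effect in TAM differed from that in another population by the test of the difference itself (adjusted p below 0.05), taking up to 6 in each direction with a level of at least 50 in both. Effects are log2, TAM minus the other population. Against monocytes, TAM had the higher effect for Cd163 by 1.53, Pi16 by 1.29, Tarm1 by 0.87 and the clone-named transcripts RP23-172K2.12 by 1.57, RP23-108F2.19 by 0.91 and RP23-25M3.6 by 1.34. For RP23-108F2.19 the TAM standard error was only 0.07 at a level of 2165, so the level filter did not exclude small standard errors. The effect was lower in TAM for Iigp1 (-0.96) and Cd9 (-1.33). Against CD8 T cells, it was higher in TAM for Slfn1 by 1.25, Slco3a1 by 1.14, Naa25 by 0.99 and the transcripts RP23-411N10.2 by 1.24 and RP23-357I14.1 by 1.31. It was lower in TAM for Sulf2 (-2.12), Emp1 (-1.48), Furin (-1.44), Ccna2 (-1.43), Ube2c (-1.38) and RP23-137A24.6 (-1.79).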

How the results depend on the processing

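At an adjusted p below 0.01 the genes called higher numbered 66 and those called lower 27. With the statistics divided by their robust spread of 0.93, 83 were called lower and 165 higher. This spread is below 1, so the division could only add calls, and keeping all 178 was fixed in advance. Adjusting over every gene with a p left 98 higher and 41 lower, all of them among the reported calls, and taking direction from the fold column moved 1 gene. The 19 differences from monocytes ranged from 14 to 23 and the 64 from CD8 T cells from 49 to 80 over the alternatives tried. Of the reported 19 and 64, only 13 and 50 remained when the statistics themselves were subtracted. With a level of at least 50 in both populations 12 and 49 remained. Olfr650-ps1 was the gene moved by the fold column, and no other reported value turned its direction under the alternatives tried. For the calls within TAM only the fold column could turn a direction, so the other settings did not test it. No paired analysis was possible because the tables carry no value per library, and for the same reason no library could be left out. With 2 control libraries and unknown depth, a gene that was not called is not shown to be unchanged.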

Other observations

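Some called genes at the edge of the table have values that fit no list. Elavl3, a neuronal RNA-binding protein gene, had the highest deposited log2 fold change of any called gene, 2.01 ± 0.34 (adjusted p = 4.9e-06) at a level of 165. With the standard error of the other TAM tables its effect was 0.81 ± 0.14, below the 1.17 of Klrk1 on that scale, so its rank depends on the scale. It stood at -0.61 with SBRT and -0.35 with the combination over the same controls. Its exons overlap Gm49318 on the same strand. The clone-named transcript RP23-25M3.6 rose by 1.15.

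A few calls rest on fold changes close to 0. Olfr650-ps1 was called higher by its statistic with a deposited log2 fold change of -0.01, Olfm5 rose by 0.10 ± 0.02 and the immunoglobulin segment Igkv6-25 stood at -0.10 ± 0.02, each with an adjusted p below 0.05.

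The near-identical signal recognition particle RNA genes Rn7s1 and Rn7s2 both fell, by 0.93, and their reads cannot be told apart. In all, 24 of the 178 called genes carry clone, predicted or pseudogene names, and 12 had a mean level below 50, 4 of them higher and 8 lower.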
